A study of Mus musculus with 69 samples.

Results

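Transcripts of 8 enzymes and enzyme subunits that make or remove superoxide were followed in mouse lung after titanium dioxide (TiO2) nanoparticles. The members were Cybb, Cyba, Ncf1, Ncf4, Sod1, Sod2, Sod3 and Cat. They were found by the gene symbol to which the accession of each array probe matched, and all 8 were among the 17639 genes tested. Each member was well above background in the lung channel on all 69 arrays.

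The mice were female C57BL/6, 5 to 7 weeks old on arrival and acclimatised for 1 to 3 weeks. They received 1 instillation into the trachea, of NRCWE-001, the unmodified particle without surface charge, or of NRCWE-002, its positively charged form, at 18, 54 or 162 µg. The particles were dispersed in water with 2% serum, and controls received that vehicle alone. A piece of whole lung was taken on day 1 or day 28, and each of the 14 groups held 5 mice with 1 array per mouse, except the vehicle group of day 28, which held 4. Lung RNA was labelled with Cy5 and a commercial mouse reference RNA with Cy3 on every array. Values are log2 ratios of lung to reference RNA, so a level is relative to the reference, and levels of different members are not compared.

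Phagocytes make superoxide with a NADPH oxidase. Its membrane core is a pair of proteins, gp91phox from Cybb, which carries the electrons, and p22phox from Cyba, which stabilises it. Cytosolic organiser and regulator subunits, among them p47phox from Ncf1 and p40phox from Ncf4, join the core when a neutrophil or macrophage is activated. Superoxide dismutases turn superoxide into hydrogen peroxide in the cytosol (Sod1), the mitochondrial matrix (Sod2) and the extracellular space (Sod3), and catalase (Cat) splits hydrogen peroxide in peroxisomes into water and oxygen.

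The sequence before the gene start was found in RefSeq (GRCm38.p6) for 6 of the 8 members, all but Ncf4 and Sod3. The 250 bases are shown for Sod2, Cat and Cyba, whose day 1 values the results turn on, and for Sod1, whose product catalyses the same reaction as that of Sod2. Capitals mark matches, on either strand, to the GC box GGGCGG, the CCAAT box CCAAT, the TATA box TATAAA, the AP-1 site TGANTCA, the antioxidant response element core TGACNNNGC and the PU.1 core GAGGAA. They lie at chr16:90220512-90220761 (plus strand, Sod1), chr17:13007589-13007838 (plus strand, Sod2), chr2:103485154-103485403 (minus strand, Cat) and chr8:122432941-122433190 (minus strand, Cyba), and are written 5′ to 3′ along the gene.
Sod1: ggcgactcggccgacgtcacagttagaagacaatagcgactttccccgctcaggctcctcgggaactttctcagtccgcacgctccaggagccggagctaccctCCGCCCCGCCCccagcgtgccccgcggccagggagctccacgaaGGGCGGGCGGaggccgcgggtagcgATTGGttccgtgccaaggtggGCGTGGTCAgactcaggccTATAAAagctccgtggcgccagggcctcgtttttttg
Sod2: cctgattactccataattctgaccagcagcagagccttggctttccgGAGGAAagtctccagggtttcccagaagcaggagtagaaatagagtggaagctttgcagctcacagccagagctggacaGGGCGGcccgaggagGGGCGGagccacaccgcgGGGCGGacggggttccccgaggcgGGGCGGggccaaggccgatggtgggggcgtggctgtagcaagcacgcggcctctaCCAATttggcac
Cat: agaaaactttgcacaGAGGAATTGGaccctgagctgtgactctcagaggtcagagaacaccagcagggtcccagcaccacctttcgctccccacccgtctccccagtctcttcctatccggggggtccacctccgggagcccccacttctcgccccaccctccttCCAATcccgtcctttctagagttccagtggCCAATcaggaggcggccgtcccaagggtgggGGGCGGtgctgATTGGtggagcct
Cyba: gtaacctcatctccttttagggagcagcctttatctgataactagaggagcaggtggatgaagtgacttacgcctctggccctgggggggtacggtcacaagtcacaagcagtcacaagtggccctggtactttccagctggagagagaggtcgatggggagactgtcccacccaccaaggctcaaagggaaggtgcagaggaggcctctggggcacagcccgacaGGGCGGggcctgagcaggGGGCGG
Sod1 and Sod2 each held 4 matches to the GC box, Cyba 2 and Cat 1. Cat held 4 matches to the CCAAT box, 1 of them overlapping its match to the PU.1 core, while Sod2 and Sod1 held 1 CCAAT box each and Cyba none. Sod2 held 1 match to the PU.1 core, and Sod1 held the TATA box and the antioxidant response element core, 1 of each. Among 32851 mouse promoters of this length, 32.7% held the GC box, 33.8% the CCAAT box, 12.4% the TATA box, 6.75% the AP-1 site, 10.2% the antioxidant response element core and 23.3% the PU.1 core. The share of G and C was 66.4% for Sod1, 63.6% for Sod2, 62% for Cat and 60% for Cyba, against a median of 52.4%. A match is of letters alone, and no binding was measured.

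On 1 array, between 61.4% and 87.8% of spots were well above background in the lung channel, and 0 spots were saturated. Arrays lay on 18 slides, and genes of arrays on 1 slide moved together, with a correlation of 0.47 after the groups were removed. Values with slide as a block, and differences within a slide that held the vehicle and the dose, are therefore given beside part of the results. Most of these are of day 1. On day 28 only 1 slide held both the vehicle and 162 µg NRCWE-001. Replicates are numbered here by the order of the labels within a group. The array of replicate 5 of 162 µg NRCWE-001 on day 1 stood apart from its group. Its ratio of Saa3, an acute-phase gene, was -3.51, inside the range of the vehicle arrays of -3.78 to -3.04, while the other 4 arrays had 3.72 to 5.14. Replicate 5 of 162 µg NRCWE-002 on day 1 had -0.57 for Saa3 against 3.49 to 4.41 on the other 4. Calls of limma at 162 µg and across doses on day 1 are given with and without them where slide was not a block. Both arrays were picked after the data were seen, and Saa3 was the gene most like Sod2 over all arrays (r = 0.94). Leaving them out therefore favours larger differences of Sod2 and of genes that vary with Saa3. The values without them are descriptive and give no further support to a call. Other exposed groups also held arrays with Saa3 near its vehicle level. With 54 µg NRCWE-001 on day 1 replicates 4 and 5 had -3.68 and -3.94, against 1.58 to 3.85 on replicates 1 to 3. With 162 µg on day 28, Saa3 was -3.21 and -3.41 in replicates 2 and 3 of NRCWE-001. In replicates 1 and 3 of NRCWE-002 it was -3.46 and -3.27. Markers of alveolar type 2 cells, which make surfactant, were detected on all arrays, 6 of 6.

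Of the 8 members, Sod2 alone rose against vehicle, at 162 µg of both particles on day 1. At that dose Cyba was higher and Cat lower without passing the test (with scale normalization Cat was higher with NRCWE-002), and both passed for NRCWE-001 when slide was a block. On day 28 no member passed at any dose of either particle, while the test across doses called Ncf4 for NRCWE-001. Calls rest on limma, with an adjusted p below 0.05 after Benjamini-Hochberg adjustment over all 17639 genes.

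**Figure D1:**
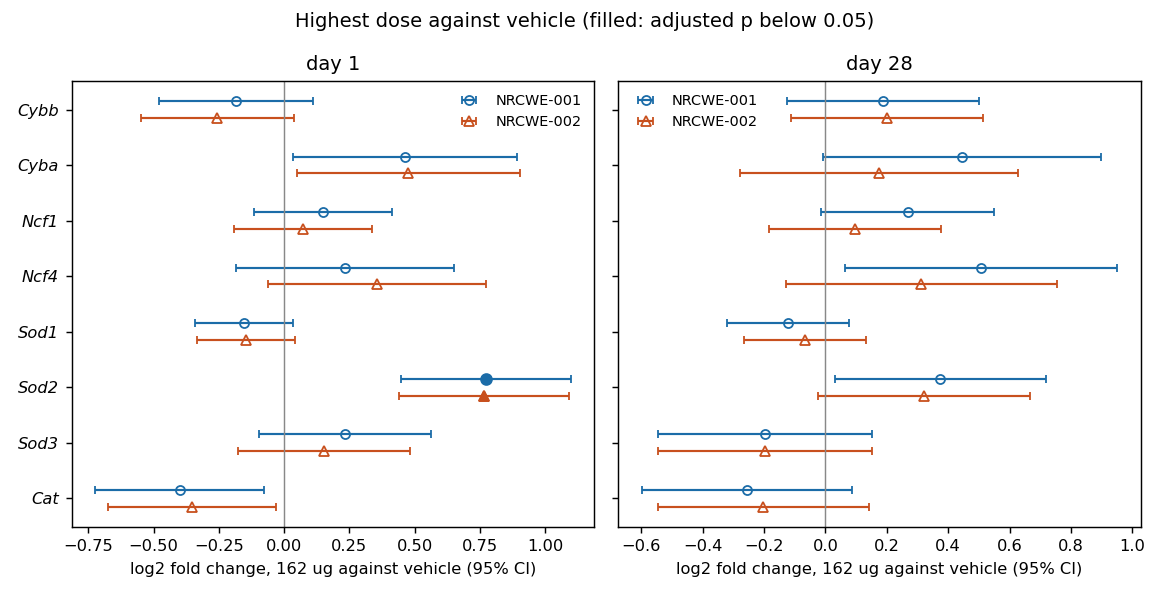
Log2 fold change of each member at 162 µg against the vehicle of the same day, with its 95% confidence interval from limma, for day 1 (left) and day 28 (right). Circles stand for NRCWE-001 and triangles for NRCWE-002, and filled symbols passed the test. Only the 2 symbols of Sod2 on day 1, at 0.77 for both particles, are filled.

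Sod2 was the member with the widest range of group means for its spread. The 5 vehicle arrays of day 1 read 0.56, 0.49, 0.56, 0.49 and 0.55. With 162 µg NRCWE-001 the arrays read 1.52, 1.42, 1.56, 1.72 and 0.29, and with 162 µg NRCWE-002 they read 1.34, 1.54, 1.42, 1.56 and 0.61. All 5 arrays of NRCWE-002 lay above all vehicle arrays, whereas with NRCWE-001 4 lay above and replicate 5 lay below all of them.

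The rise of Sod2 was 0.77 ± 0.16 (SE) for NRCWE-001, a 1.71-fold change (95% confidence interval of the log2 value 0.45 to 1.098, adjusted p = 0.00953). For NRCWE-002 it was 0.77 ± 0.16, or 1.70-fold (0.44 to 1.09, adjusted p = 0.0105). In these contrasts 0.578% and 0.595% of all genes were called, and 1 of the 8 members in each. In the deposited log2 ratios of the authors the rises were 0.77 (adjusted p = 0.00952) and 0.74 (adjusted p = 0.0162).

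Replicate 5 was picked by its Saa3, which varied with Sod2, so its omission favours a larger rise. Without replicate 5 the rise of Sod2 was 1.03 for NRCWE-001 (adjusted p = 3.6e-06) and 0.94 for NRCWE-002. Without replicate 3 or replicate 4 of 162 µg NRCWE-001 it was 0.71 (adjusted p = 0.0611) and 0.67 (adjusted p = 0.123), and without replicate 2 or replicate 4 of 162 µg NRCWE-002 it was 0.70 in both cases (adjusted p = 0.0564 and 0.0593). Each of these 4 omissions ended the call, and left replicate 5 in its group. With scale normalization between arrays the rises were 0.90 and 0.98 and neither passed, and with median centring they were 0.91 (adjusted p = 0.0524) and 0.92 (adjusted p = 0.0492). On the slides that held the vehicle and the dose, Sod2 was 0.937 to 1.00 higher with NRCWE-001 (3 slides) and 0.853 to 0.867 higher with NRCWE-002 (2 slides). Neither replicate 5 array of 162 µg lay on these slides. With slide as a block the rises were 0.78 ± 0.16 (adjusted p = 0.0027) and 0.86 ± 0.18 (adjusted p = 0.00819).

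At 54 µg on day 1 the means of Sod2 lay between those of vehicle and 162 µg. The arrays read 1.19, 1.07, 1.30, 0.64 and 0.59 with NRCWE-001 and 1.25, 0.85, 0.97, 1.45 and 0.94 with NRCWE-002, all 5 above all vehicle arrays in both groups. The values of 0.64 and 0.59 were those of replicates 4 and 5, whose Saa3 was near its vehicle level. Of all genes, 3.23% and 2.94% had groups that did not overlap in these contrasts, and 3.4% and 4.9% at 162 µg on day 1. The differences were 0.43 ± 0.16 (adjusted p = 0.806) and 0.56 ± 0.16 (adjusted p = 0.275) and did not pass. In the contrast of 54 µg NRCWE-002 0.0624% of genes were called, and with slide as a block, where 1.37% were, Sod2 passed with a rise of 0.74 ± 0.17 (adjusted p = 0.0127). For 54 µg NRCWE-001 the value with the block was 0.52 (adjusted p = 0.0954). At 18 µg Sod2 read 0.65 ± 0.08 (SD, n = 5) with NRCWE-001 and 0.53 ± 0.07 (SD, n = 5) with NRCWE-002, against 0.53 ± 0.04 (SD, n = 5) in vehicle.

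The test across the 3 doses on day 1 called Sod2 for both particles, with F = 9.15 (adjusted p = 0.0139) for NRCWE-001 and F = 11.6 (adjusted p = 0.00322) for NRCWE-002. It called 0.697% and 0.822% of all genes, and no other member. The call for NRCWE-001 was lost without replicate 1, 2, 3 or 4 of 162 µg (adjusted p = 0.0779, 0.0545, 0.0984 and 0.141) and with median centring (0.110), while that for NRCWE-002 held in all 20 omissions of 1 array. Without replicate 5 of the 162 µg group the adjusted p-values were 9.47e-06 and 0.000107. Both were lost with scale normalization between arrays. With slide as a block the test called 7.42% and 2.36% of genes, and the members called were Sod2, Sod3 and Cat for NRCWE-001 and Sod2 and Cat for NRCWE-002.

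**Figure D2:**
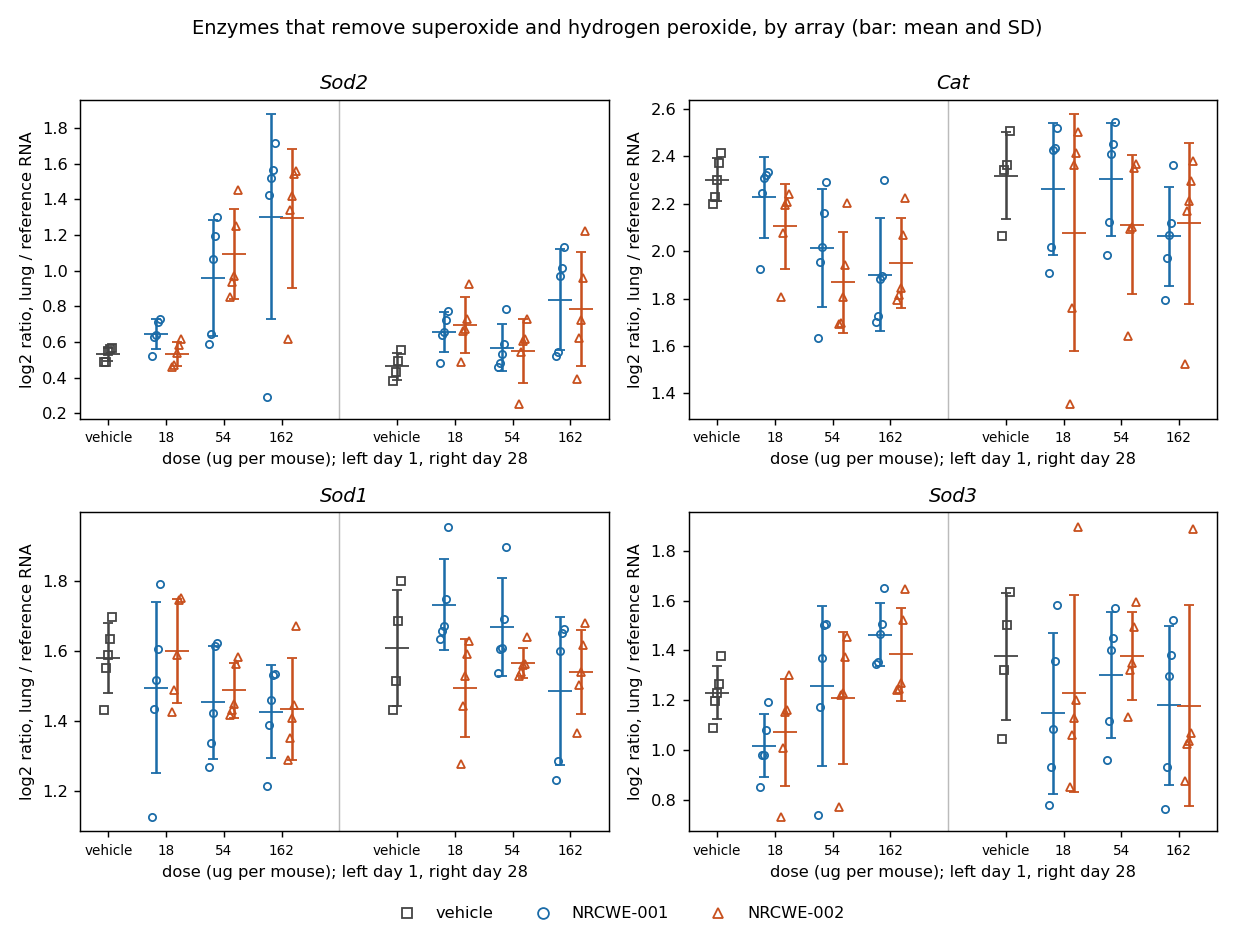
Log2 ratio of lung to reference RNA of Sod1, Sod2, Sod3 and Cat on every array, by dose, with day 1 on the left and day 28 on the right of each panel. Bars give the mean and SD of 4 or 5 arrays. Sod2 reached 1.30 ± 0.57 and 1.29 ± 0.39 at 162 µg on day 1 and its lowest array in both groups was replicate 5. Cat was lowest at 54 and 162 µg on day 1.

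On day 28 Sod2 read 0.55, 0.38, 0.49 and 0.43 in vehicle, 1.02, 0.55, 0.52, 0.97 and 1.13 with 162 µg NRCWE-001, and 0.39, 0.96, 0.62, 1.22 and 0.72 with 162 µg NRCWE-002. Both exposed groups overlapped the vehicle group. The differences of 0.37 ± 0.17 (adjusted p = 0.525) and 0.32 ± 0.17 (adjusted p = 0.747) did not pass. Within slides Sod2 differed from vehicle by 0.638 with 162 µg NRCWE-001 (1 slide) and by -0.163 and 0.193 with 162 µg NRCWE-002 (2 slides). The difference at 162 µg was smaller on day 28 than on day 1 by 0.40 for NRCWE-001 (interval of the change -0.87 to 0.07) and by 0.44 for NRCWE-002 (-0.92 to 0.03), and neither change passed the test.

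The cytosolic and extracellular dismutases had smaller differences from vehicle. Sod1 read 1.43 to 1.70 in vehicle on day 1, 1.21 to 1.54 with 162 µg NRCWE-001 and 1.29 to 1.67 with 162 µg NRCWE-002. The differences were -0.16 (adjusted p = 0.858) and -0.15 (adjusted p = 0.725), but 0.03 and 0.07 with median centring and 0.07 and 0.20 with scale normalization, which turns their direction. Sod3 read 1.09 to 1.38 in vehicle, 1.34 to 1.65 with 162 µg NRCWE-001 and 1.24 to 1.65 with 162 µg NRCWE-002, which are differences of 0.23 (adjusted p = 0.947) and 0.15 (adjusted p = 0.921). At 18 µg NRCWE-001 Sod3 was at its lowest group mean, 1.02. Its test across the doses of NRCWE-001 on day 1 gave an adjusted p of 0.724, and 0.0159 with slide as a block. The Sod3 probe was well above background in the reference channel on only 25 of 69 arrays, and a reference signal near background compresses the ratio.

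The mean of Cat was lower on day 1 at 54 and 162 µg of both particles, except with scale normalization at 162 µg NRCWE-002. Its vehicle arrays read 2.20, 2.42, 2.37, 2.23 and 2.30. With 162 µg NRCWE-001 they read 1.89, 1.73, 1.88, 1.70 and 2.30, and with 162 µg NRCWE-002 1.79, 2.07, 1.81, 1.84 and 2.22. In both groups 4 arrays lay below all vehicle arrays and replicate 5 lay inside their range. At 54 µg the arrays read 1.63, 1.95, 2.02, 2.29 and 2.16 with NRCWE-001 and 1.70, 1.69, 2.20, 1.94 and 1.81 with NRCWE-002. Replicates 4 and 5 of 54 µg NRCWE-001, with Saa3 near its vehicle level, had the highest Cat of their group, 2.29 and 2.16.

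At 162 µg Cat differed from vehicle by -0.40 ± 0.16 (-0.72 to -0.08, adjusted p = 0.458) for NRCWE-001 and by -0.35 ± 0.16 (-0.68 to -0.03, adjusted p = 0.480) for NRCWE-002, and with scale normalization between arrays by -0.09 and 0.13, which turns the direction of the second. Without replicate 5 the differences were -0.50 and -0.42, and neither passed. With slide as a block Cat fell by 0.50 ± 0.12 with NRCWE-001 (adjusted p = 0.00909), where 4.37% of genes were called. For NRCWE-002 the block gave -0.45 (adjusted p = 0.0687), where 1.96% of genes were called. At 54 µg the differences were -0.29 and -0.43 (adjusted p = 0.632 for the second), and with the block Cat fell by 0.56 ± 0.12 with NRCWE-002 (adjusted p = 0.0120). Within slides Cat was lower than its vehicle array on all 3 slides with 162 µg NRCWE-001, by -0.688 to -0.305, and on both slides with NRCWE-002, by -0.484 to -0.434. These slides did not hold the replicate 5 arrays of 162 µg. On day 28 Cat read 2.32 ± 0.18 (SD, n = 4) in vehicle and between 2.06 and 2.30 in the means of the 6 exposed groups.

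**Figure D3:**
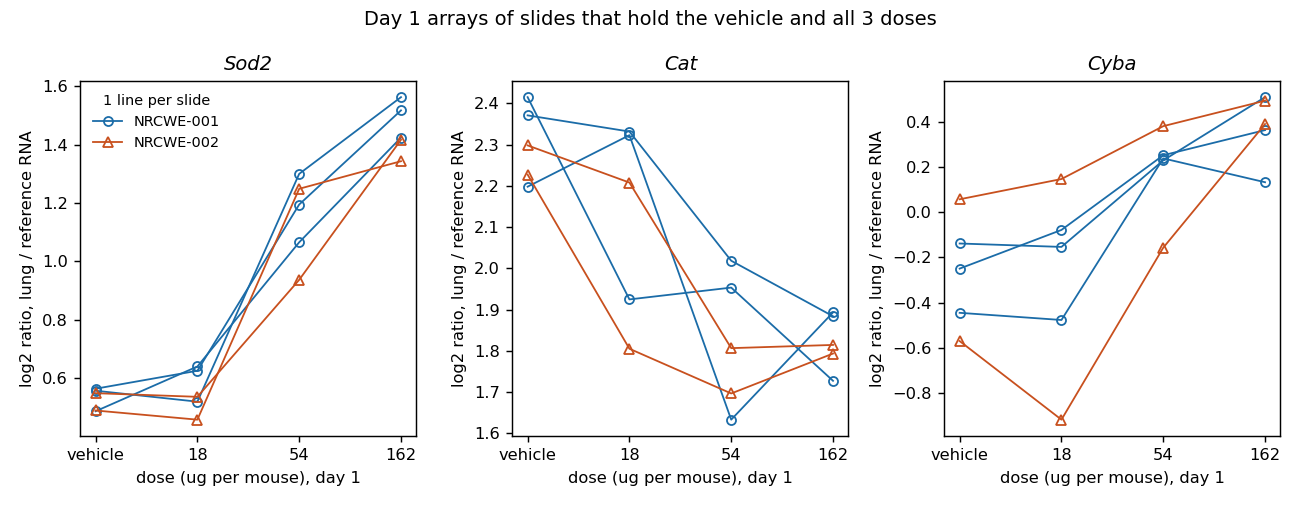
Log2 ratios of Sod2, Cat and Cyba on the day 1 arrays of the slides that held the vehicle and all 3 doses, with dose on the horizontal axis. Each line is 1 slide, 3 for NRCWE-001 (circles) and 2 for NRCWE-002 (triangles). From vehicle to 162 µg Sod2 is higher on every slide shown, Cat lower and Cyba higher. The slides shown do not hold the replicate 5 arrays of 162 µg or replicates 4 and 5 of 54 µg NRCWE-001.

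Among the oxidase subunits, Cyba was the member with the largest difference at 162 µg on day 1. It read -0.25, -0.45, -0.14, 0.06 and -0.57 in vehicle, 0.36, 0.13, 0.51, 0.18 and -0.22 with 162 µg NRCWE-001, and 0.49, 0.15, 0.39, 0.26 and -0.26 with 162 µg NRCWE-002. In each exposed group 4 arrays lay above all vehicle arrays and replicate 5 lay inside their range. The differences of 0.46 ± 0.21 (0.04 to 0.89, adjusted p = 0.613) and 0.48 ± 0.21 (0.05 to 0.90, adjusted p = 0.467) did not pass, nor did those without replicate 5, 0.57 and 0.59. With slide as a block they were 0.61 ± 0.18 (adjusted p = 0.0360), a rise, and 0.45 (adjusted p = 0.270). Within slides Cyba was 0.578 to 0.648 higher with NRCWE-001 on 3 of 3 slides and 0.437 to 0.961 higher with NRCWE-002 on 2 of 2. Neither replicate 5 array was on these slides.

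The other membrane subunit, Cybb, had lower means at 162 µg on day 1, except with scale normalization between arrays. Its vehicle arrays read 1.35 to 1.68, those of 162 µg NRCWE-001 1.26 to 1.51 and those of 162 µg NRCWE-002 1.08 to 1.45, and both groups overlapped the vehicle. The differences were -0.19 (adjusted p = 0.985) and -0.26 (adjusted p = 0.659), and with scale normalization 0.04 and 0.08. The 2 probes of Cybb disagreed in size, with -0.04 and -0.33 for NRCWE-001 and -0.09 and -0.42 for NRCWE-002. At 162 µg NRCWE-002 on day 28 they disagreed in sign, with -0.06 and 0.46. The probe with the smaller changes was well above background in the reference channel on 24 of 69 arrays.

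Ncf1 read -0.01 to 0.39 in vehicle on day 1, 0.16 to 0.44 with 162 µg NRCWE-001 and 0.00 to 0.30 with 162 µg NRCWE-002, differences of 0.15 and 0.07. Ncf4 read -1.72 to -1.15 in vehicle, -1.48 to -0.95 with NRCWE-001 and -1.26 to -0.94 with NRCWE-002, differences of 0.23 and 0.36 (adjusted p = 0.666 for the second). The groups of both genes overlapped the vehicle, and none of these differences passed. Without replicate 5 the differences of Sod1, Sod3, Cybb, Ncf1 and Ncf4 at 162 µg on day 1 lay between -0.27 and 0.35 for the 2 particles, and none passed.

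**Figure D4:**
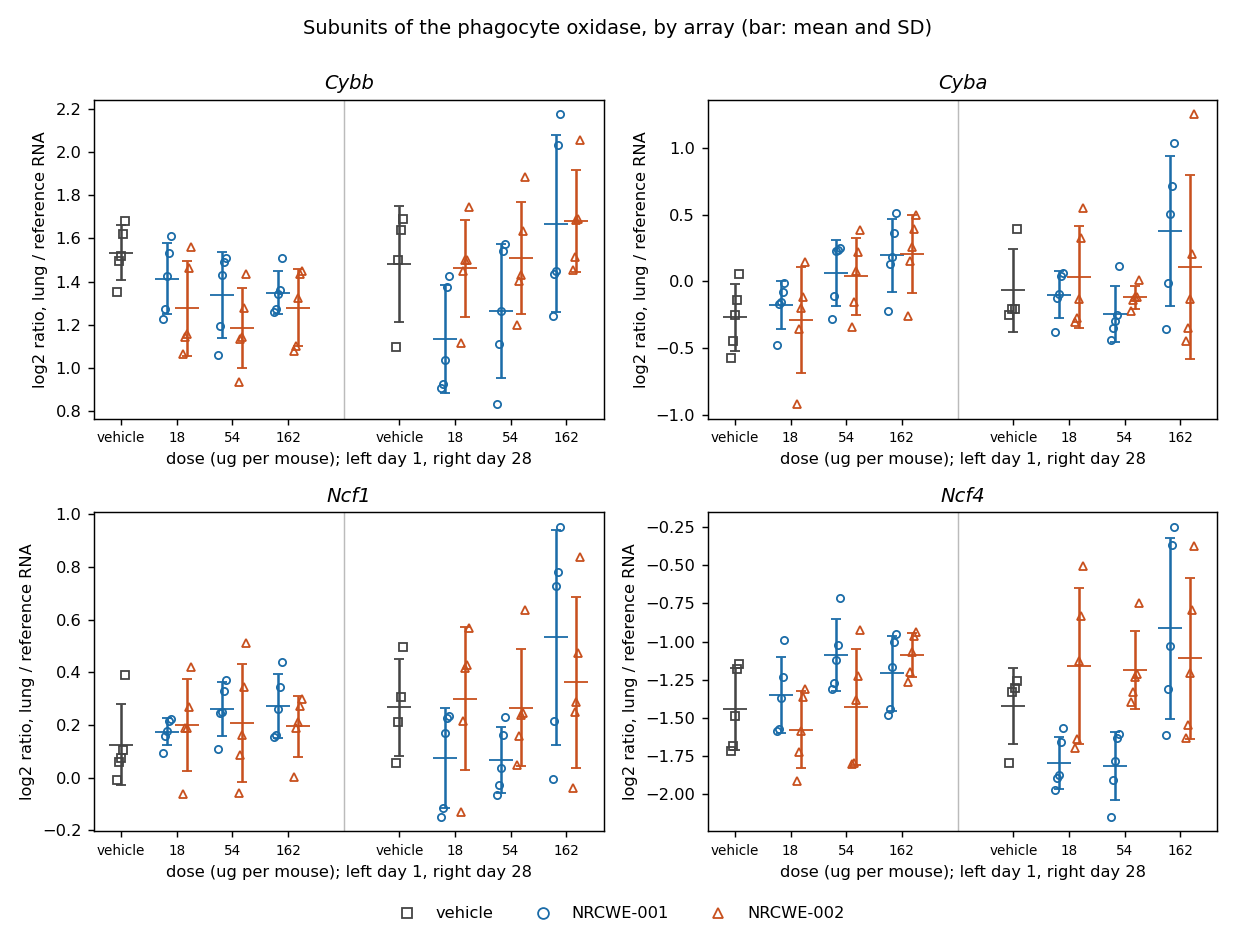
Log2 ratio of lung to reference RNA of the oxidase subunits Cybb, Cyba, Ncf1 and Ncf4 on every array, by dose, with day 1 on the left and day 28 on the right of each panel. Bars give the mean and SD of 4 or 5 arrays. On day 28 Ncf4 lies lower with 18 and 54 µg NRCWE-001, at -1.79 and -1.82, than with 162 µg, at -0.91.

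On day 28 Ncf4 differed between the doses of NRCWE-001. It read -1.33, -1.26, -1.80 and -1.30 in vehicle, and -1.98, -1.90, -1.57, -1.87 and -1.66 with 18 µg. It read -2.15, -1.91, -1.63, -1.78 and -1.61 with 54 µg, and -1.03, -1.61, -1.31, -0.37 and -0.25 with 162 µg. All arrays of the 2 lower doses lay below 3 of the 4 vehicle arrays and 3 arrays of the highest dose lay above all 4, so the order of the means did not follow the dose.

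The test across doses called Ncf4 (F = 8.20, adjusted p = 0.0302, and 0.0359 with slide as a block, where 1.98% of genes were called). It called 0.476% of all genes and no other member. Against vehicle the doses differed by -0.37 ± 0.22 (adjusted p = 0.713), -0.39 and 0.51 ± 0.22 (0.07 to 0.95, adjusted p = 0.474), and none passed. The call of Ncf4 was lost without replicate 1, 4 or 5 of 162 µg (adjusted p = 0.0638, 0.242 and 0.287), without replicate 1 or 4 of 18 µg (0.0663 and 0.0582) and without replicate 1 or 2 of 54 µg (0.0600 and 0.0511). It was also lost in a fit of the day 28 arrays alone (adjusted p = 0.401), with median centring (0.0628) and with scale normalization between arrays.

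The means of Ncf1 and Cybb on day 28 were also below vehicle at both lower doses of NRCWE-001 and above it at 162 µg, where that of Cybb was below it with scale normalization (-0.12). Ncf1 read 0.07, 0.07 and 0.53 in the means of 18, 54 and 162 µg NRCWE-001 against 0.27 in vehicle, and Cybb 1.13, 1.26 and 1.67 against 1.48. Their tests across doses gave adjusted p-values of 0.142 and 0.173, and both passed with slide as a block (0.0102 and 0.0148). Cyba read -0.36 to 1.04 with 162 µg NRCWE-001 and -0.44 to 1.25 with 162 µg NRCWE-002 on day 28, against -0.25 to 0.39 in vehicle, differences of 0.44 (adjusted p = 0.590) and 0.17. The doses of NRCWE-002 gave no call on day 28 among the members or among all genes (0% in limma, and 0.0113% of genes when slide was a block), and 0 members and 4.34% of genes had an unadjusted p below 0.05.

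Counts over the members at 162 µg followed from these values. On day 1, 3 members for each particle had an unadjusted p below 0.05 in limma, beside 7.08% and 8.93% of all genes. On day 28 limma called 0 members for either particle, where 0.0454% and 0.00567% of genes were called, while 2 members for NRCWE-001 and 0 for NRCWE-002 had an unadjusted p below 0.05, beside 8.63% and 6.71% of all genes. The arrays of no member lay apart from vehicle at 162 µg on day 28, against 2.25% and 1.07% of all genes. At 18 µg NRCWE-001 on day 28, where 0.193% of genes were called, 0 members passed and 1 had an unadjusted p below 0.05, beside 8.16% of all genes. The median log2 fold change of the 8 members at 162 µg was 0.19 and 0.11 on day 1 and 0.23 and 0.14 on day 28 for NRCWE-001 and NRCWE-002, beside 0.01 and 0.01, and -0.01 and -0.01 for all genes.

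The charged and the uncharged particle were compared at matched doses and days, in 48 pairs of 1 member, dose and day. Particle and slide were partly tied. On day 1 replicates 1 to 3 of NRCWE-001, and on day 28 those of NRCWE-002, lay on slides without the other particle. Differences without slide as a block therefore mix particle with slide. At 162 µg on day 1 Sod2 differed by -0.01 between NRCWE-002 and NRCWE-001, with an interval of -0.33 to 0.32, and Cat by 0.05 (-0.28 to 0.37). Cyba differed by 0.01 (-0.41 to 0.44) at that dose, so these data leave room for differences of that size in either direction. With slide as a block the differences of Sod2, Cat and Cyba at that dose were 0.08, 0.05 and -0.15. The difference of the means over the 3 doses on day 1 passed for no member in limma (0 with an unadjusted p below 0.05, beside 7.32% of genes, and 0.125% of genes were called), and at 54 µg on day 1 0.13% of genes and 0 members were called.

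On day 28 Ncf4 was the member with the largest difference between the particles over the 3 doses. At 54 µg it read -0.75, -1.21, -1.33, -1.39 and -1.24 with NRCWE-002, all above the 5 arrays of NRCWE-001 at that dose, while at 18 µg it read -0.51, -0.83, -1.70, -1.13 and -1.64 and overlapped them. Groups did not overlap for 1.37% of genes at 54 µg and for 0.958% at 18 µg, where the member concerned was Sod1. The differences of Ncf4 were 0.64 ± 0.21 at 18 µg (0.22 to 1.05, adjusted p = 0.280, 0.119% of genes called) and 0.63 ± 0.21 at 54 µg (0.22 to 1.05, adjusted p = 0.356, 0.0283% of genes called). At 162 µg it was -0.20 (-0.61 to 0.22). With slide as a block the differences of Ncf4 at 18, 54 and 162 µg were 0.56, 0.56 and -0.15.

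Over the 3 doses of day 28 Ncf4 was 0.36 ± 0.12 higher with NRCWE-002 (0.12 to 0.60, adjusted p = 0.0661), where 4.75% of all genes were called. Cybb was 0.20 higher (adjusted p = 0.156), and these were the 2 members with an unadjusted p below 0.05, a share near that of all genes (22.2%). Leaving out replicate 4 or 5 of 162 µg NRCWE-001, or replicate 1 or 3 of 162 µg or replicate 3 or 5 of 18 µg NRCWE-002, gave Ncf4 a call (adjusted p = 0.0326 to 0.0472), and with slide as a block its difference was 0.33 (adjusted p = 0.799). Replicate 2 of 18, 54 and 162 µg NRCWE-002 lay on 1 slide and had the lowest array weights in limma, 0.118, 0.136 and 0.101. Without that of 54 µg, the genes called in this contrast went from 837 to 349. With median centring the difference of Ncf4 was 0.02 and with scale normalization 0.13, while that of Cybb was -0.40 with the processed signals, which turns its direction. On the same arrays the mean over 4 genes of all leukocytes (Ptprc, Cd52, Lcp1 and Coro1a) was 0.61 to 1.26 in vehicle. It was 0.54 to 0.86, 0.61 to 0.82 and 0.66 to 1.64 with 18, 54 and 162 µg NRCWE-001, and 0.67 to 1.44, 1.01 to 1.43 and 0.71 to 1.88 with the same doses of NRCWE-002. The arrays of the particles did not overlap at 54 µg and overlapped at the other doses, and the difference in this mean was not tested. The part of leukocytes in the values of Ncf4 was not tested. In whole lung, fewer cells of a type and less RNA per cell cannot be told apart.

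Between the vehicle groups of day 1 and day 28 no member passed (limma, 0 called and 0 with an unadjusted p below 0.05, beside 5.77% of genes, and 0% of genes were called). The change of the effect of 162 µg from day 1 to day 28 passed for no member (0% of genes called for either particle), and 1 member, Cybb with NRCWE-002, had an unadjusted p below 0.05 (beside 6.70% of genes), with a change of 0.46 (0.03 to 0.89, adjusted p = 0.692). Its 2 probes disagreed, at -0.09 and -0.42 on day 1 and at -0.06 and 0.46 on day 28. Within the 2 slides of day 28 that held the vehicle and this dose Cybb was lower, by -0.185 and -0.175.

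Over all 14 groups the mean of Sod2 ran from 0.46 in vehicle of day 28 to 1.30 with 162 µg NRCWE-001 on day 1, a range of 3.22 times the pooled SD within groups. Ncf4 followed with -1.82 to -0.91, or 2.68 times, and its extremes were both NRCWE-001 groups of day 28, at 54 and 162 µg. The ranges of Cybb, Ncf1 and Sod1 were 2.33, 2.21 and 2.08 times their pooled SD, and those of Cyba, Cat and Sod3 1.93, 1.73 and 1.68 times. When the groups were put in order of their means, 0 of the 13 gaps between neighbours exceeded the pooled SD, for each of the 8 members. Gaps between 14 ordered means over such ranges are narrow in any case, and the SD is that of single arrays. The count therefore does not test differences between groups.

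The genes whose log2 ratio was most like that of each member over the 69 arrays were found by Pearson correlation, which describes arrays that share slides and doses. For Sod2 they were Saa3 (r = 0.94) and Saa1 (r = 0.94), which code for acute-phase proteins, and Timp1 (r = 0.93), an inhibitor of matrix metalloproteinases. Cyba was most like Fcer1g (r = 0.87), the signalling chain of Fc receptors, Emp3 (r = 0.87) and Rab20 (r = 0.84). Ncf4 was most like Rgs14 (r = 0.87), Map4k1 (r = 0.86) and Lpxn (r = 0.86), and Ncf1 was most like Slc15a3 (r = 0.82), Fcer1g (r = 0.81) and Vav1 (r = 0.80). For Cybb the genes were Rab19 (r = 0.80), Ms4a4b (r = 0.79) and Cd84 (r = 0.78). Cat was most like Gprc5b (r = 0.80), Gsta3 (r = 0.76), a glutathione transferase, and Kdsr (r = 0.75). Sod3 was most like Meox1 (r = 0.83), Heyl (r = 0.82) and Ace (r = 0.82), and Sod1 was most like Aldh1a1 (r = 0.74), Etv1 (r = 0.72) and Pgrmc1 (r = 0.70).

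Among the members themselves Cyba, Ncf1 and Ncf4 varied together, with r = 0.73 for Cyba and Ncf1, 0.67 for Cyba and Ncf4 and 0.64 for Ncf1 and Ncf4. Cybb, which codes for the partner protein of the Cyba product, had r = 0.11 with Cyba, 0.29 with Ncf1 and 0.50 with Ncf4. Cat ran opposite to Cyba (r = -0.66), Sod2 (r = -0.56), Ncf1 (r = -0.55) and Ncf4 (r = -0.44). Sod1 ran opposite to Ncf4 (r = -0.57) and Sod2 (r = -0.53), and less so to the other oxidase subunits and Sod3.

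Other genes of the pathway were counted in fixed lists. Of 14 further oxidase genes 11 were tested, all but Nox3, Duox2 and Duoxa1, and 1 was called at 162 µg on day 1, for both particles. It was Noxo1, the organiser subunit of the oxidase built on Nox1. In vehicle Noxo1 read -0.12 to 0.15. With 162 µg NRCWE-001 it read 2.48, 2.48, 2.74, 2.44 and -0.16, and with 162 µg NRCWE-002 2.25, 2.54, 2.84, 2.40 and 1.09. All arrays but replicate 5 of NRCWE-001 lay above all vehicle arrays. The rises were 1.94 ± 0.45 or 3.84-fold (adjusted p = 0.0201) and 2.17 ± 0.45 or 4.49-fold (adjusted p = 0.00928). For NRCWE-001 the call was lost without any of replicates 1 to 4 of 162 µg or vehicle replicates 2, 4 and 5 (rises of 1.75 to 2.48 over all omissions, highest adjusted p = 0.142), and for NRCWE-002 it held in all 10 omissions. Without replicate 5 the rises were 2.48 (adjusted p = 0.000209) and 2.45 (adjusted p = 0.00155), and both calls were lost with scale normalization between arrays. The rises with slide as a block were 2.07 (adjusted p = 0.00353) and 2.43 (adjusted p = 0.00657). On day 28 the differences of Noxo1 were 1.43 (adjusted p = 0.279) and 1.03 (adjusted p = 0.698). The median over the 11 genes was 0.10 and 0.03 on day 1 and 0.06 and 0.01 on day 28.

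The 18 genes of peroxide removal, which code for glutathione peroxidases, peroxiredoxins, thioredoxins and their reductases and the copper chaperone Ccs, gave 0 calls at 162 µg or across doses. On day 1 15 of 18 were above 0 with either particle, with medians of 0.10 and 0.14, beside 0.01 and 0.01 for all genes. On day 28 8 and 5 of 18 were, with medians of -0.06 and -0.09, beside -0.01 and -0.01. This list was not counted under the alternative normalizations. In the difference between the particles over the doses of day 28, Gpx8 fell by 0.26 and Prdx4, a peroxiredoxin, fell by 0.16 with NRCWE-002 against NRCWE-001 (adjusted p = 0.0161 and 0.0397). In this contrast 4.75% of all genes were called. With slide as a block these differences were -0.03 and -0.06 and did not pass, and both genes were chosen after their values were seen. The call of Prdx4 was also lost in 14 of 30 omissions of 1 array, and that of Gpx8 in 0. Over 14 other settings, slide as a block among them, the call of Gpx8 held in only 8 and that of Prdx4 in 6. The 8 other oxidant enzymes (Xdh, Aox1, Mpo, Epx, Lpo, Nos1, Nos2 and Nos3) gave 0 calls, with medians between -0.03 and 0.03.

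Neutrophils carry the phagocyte oxidase, and their markers were followed beside the members. Of 11 neutrophil markers 10 were tested, all but Ly6g, with medians at 162 µg of 0.65 and 0.52 on day 1 and 0.04 and -0.06 on day 28. Of these, 2 were called, both for NRCWE-001 on day 1: Cxcr2, a chemokine receptor (0.69, adjusted p = 0.0201), and Csf3r, the receptor of granulocyte colony-stimulating factor (0.80, adjusted p = 0.0272). In the reference channel the Csf3r probe was well above background on only 1 of 69 arrays, and the Cxcr2 probes on 20 and 32. Both calls were lost without replicate 1, 3 or 4 of 162 µg NRCWE-001 or vehicle replicate 2 or 5, and that of Csf3r also without vehicle replicate 1 or 3. Both were also lost in a fit of the day 1 arrays alone, with the processed signals and with scale normalization, and that of Csf3r with median centring. Without replicate 5 of 162 µg the values were 0.88 (adjusted p = 0.000175) and 1.00 (adjusted p = 0.000725). The mean over the list was 1.24 to 1.76 on the vehicle arrays, 1.37 to 2.59 with 162 µg NRCWE-001 and 1.63 to 2.22 with 162 µg NRCWE-002. Replicate 5 of 162 µg NRCWE-001 had the lowest of its group, 1.37, beside the lowest Sod2 and Cyba and the highest Cat. Replicate 5 of 162 µg NRCWE-002 also had the lowest Sod2 and Cyba and the highest Cat of its group, while its neutrophil mean of 1.94 lay inside the range of the other 4 arrays. The part of neutrophils in the values of the members was not tested.

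Markers of other cell types were counted at 162 µg on day 1 in the same way, and the values are given for NRCWE-001 and then NRCWE-002. Macrophage markers (6 of 8 tested, all but Cd68 and Ear2) had medians of -0.15 and 0.04, monocyte markers 0.28 and 0.34, and markers of all leukocytes 0.08 and 0.15. Alveolar type 2 markers were at -0.04 and -0.02, endothelial markers at -0.09 and -0.03, and club cell markers (2 of 3 tested, all but Scgb3a2) at -0.41 and -0.52. Among alveolar type 1 markers, with medians of -0.10 and -0.08, Pdpn was called for both particles (0.68, adjusted p = 0.0067, and 0.58, adjusted p = 0.0305). The first call was lost without replicate 4 of 162 µg, and the second without any of replicates 1 to 4 of 162 µg or vehicle replicates 1, 3, 4 and 5. Both were lost with scale normalization, and the second also with median centring and with the processed signals. Without replicate 5 the rises were 0.78 (adjusted p = 0.000576) and 0.66 (adjusted p = 0.00824). Smooth muscle markers were at 0.09 and 0.26, with Tagln called across the doses of NRCWE-001 (adjusted p = 0.025, lost without any of 6 of the 20 arrays, with median centring and with scale normalization, and 0.0111 without replicate 5 of 162 µg), and erythroid markers at -0.06 and 0.02. Adipocyte markers were at -0.16 and 0.29 and cardiac muscle markers at 0.34 and 0.82. On day 28 adipocyte markers were at 0.95 and cardiac muscle markers at 1.88 with 162 µg NRCWE-002, and 0 genes of either list were called in limma.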

How the data were processed

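Lung RNA of 69 mice was hybridised to 2-colour Agilent whole-genome mouse arrays, without dye swap. The deposited files held intensity values per spot, which the authors had extracted with Agilent Feature Extraction 11.0.1.1 as median pixel brightness with local background, and processed signals. The table deposited by the authors held log2 ratios after LOWESS and was used as an alternative. Here background was corrected by normexp (offset 50, spots whose background lay over 10 median absolute deviations away left out of its fit), followed by loess (span 0.3), in limma 3.58.1 and R 4.3.3. Of 41174 probes, 27479 matched a RefSeq symbol. Probes well above background on at least 4 arrays were kept. Gene values were medians over probes. The number of arrays limits the precision.

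limma fitted 14 group means, taken from the labels, over all arrays, without covariates. P-values were adjusted by Benjamini-Hochberg over 17639 genes within each contrast, and all members were named. From the lists, up to 4 genes called across doses or at 162 µg were named. For likeness, 3 genes per member were named. The members and lists were chosen with earlier results of these data known. The code was tested on simulated data. Slide, scan day, array weights, other background and normalization settings, filters, arrays of the same day and each array left out were alternatives. Proteins and genome coordinates of probes were not analysed here.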

Additional observations from a re-analysis of the deposited data

Results flagged for a closer look

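In 9 of 112 groups of 1 member, the highest or lowest array lay apart from the rest by Dixon's criterion at the 95% level, which chance gives in about 1 of 20 groups. In the 162 µg groups of day 1 the lowest Sod2 value was that of replicate 5, 0.29 for NRCWE-001 (nearest 1.42) and 0.61 for NRCWE-002 (nearest 1.34). In vehicle of day 28 replicate 2 was highest for Cyba, at 0.39 (nearest -0.20), and replicate 3 was lowest for Ncf4, at -1.80 (nearest -1.33). In vehicle of day 1 replicate 4 was highest for Ncf1, at 0.39 (nearest 0.11). For Ncf4 with 54 µg NRCWE-002 on day 28 replicate 1 was highest, at -0.75 (nearest -1.21). With 162 µg NRCWE-002 on day 28 replicate 1 was highest for Sod3, at 1.89 (nearest 1.07), and replicate 2 was lowest for Cat, at 1.52 (nearest 2.17). With 18 µg NRCWE-001 on day 1 replicate 2 was lowest for Cat, at 1.92 (nearest 2.24).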

How the results depend on the processing

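No called fold change of a member changed sign under any alternative run, while Csf3r at 162 µg NRCWE-001 on day 1 was at -0.032 with the processed signals, against 0.80. Member values that did not pass changed sign in 80 of the 1144 values of the other settings. The number of members called moved as follows, with the share of all genes called in the same setting in parentheses. At 162 µg NRCWE-001 on day 1 (1 called, 0.578%) it was 3 with array weights (6.04%), with slide as a block (4.37%) and with slide as a random block (3.31%), 2 with scan day as a block (4.27%), and 0 with median centring (0.21%) and with scale normalization between arrays (0.0227%). At 162 µg NRCWE-002 on day 1 (1 called, 0.595%) it was 3 with array weights (7.14%), 2 with scan day (4.46%) and 0 with scale normalization (0.0113%). At 54 µg on day 1 (0 called) it was 1 with array weights for NRCWE-001 (3.34%) and NRCWE-002 (0.964%), and for NRCWE-002 2 with slide (1.37%), slide as a random block (1.09%) and scan day (0.777%). At 162 µg NRCWE-001 on day 28 (0 called) array weights gave 3 (6.2%). Across the doses of NRCWE-001 on day 1 (1 called, 0.697%) it was 3 with array weights (11%), slide (7.42%) and scan day (6.59%), 2 with the random block (5.7%), and 0 with median centring (0.21%) and scale normalization (0%). For NRCWE-002 on day 1 (1 called, 0.822%) it was 3 with array weights (8.54%), 2 with slide (2.36%), the random block (2.85%) and scan day (4.1%), and 0 with scale normalization (0.017%). Across the doses of NRCWE-001 on day 28 (1 called, 0.476%) it was 5 with array weights (9.89%), 3 with slide (1.98%), the random block (2.87%) and scan day (1.76%), and 0 with median centring (0.249%), scale normalization (0.0227%) and the day 28 arrays alone (0.085%). The difference between the particles over the doses of day 28 (0 called, 4.75%) gave 3 with median centring, where 25.6% of all genes were called. The causes were not tested.

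With 1 array left out, the number of members called ran from 0 to 1 at 162 µg NRCWE-001 and NRCWE-002 on day 1, across the doses of NRCWE-001 on day 1 and in the particle difference of day 28, and from 0 to 3 across the doses of NRCWE-001 on day 28. With both replicate 5 arrays of 162 µg on day 1 left out together, chosen after the data were seen, Sod2 rose by 1.03 (adjusted p = 1.38e-07) and 0.94 (adjusted p = 2.14e-06). No paired analysis was possible because the labels number the arrays across the whole series and give no replicate number within a group to pair on. Slides tied arrays of different groups (replicates 1 to 3 of vehicle and of all doses of NRCWE-001 on day 1 lay on the same 3 slides), and slide was the block instead. Among the members, Sod3 and 1 Cybb probe were close to background in the reference channel. Among the neutrophil markers named, so were the probes of Csf3r and Cxcr2.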
